A study of Mus musculus with 8 samples.

Results

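The Tcstv and D13Ertd608e genes form a small family of genes transcribed at the cleavage stage of the mouse embryo, and their RNA was followed here across 4 siRNA treatments of mouse embryonic stem cells. The members are Tcstv1, Tcstv3, D13Ertd608e, AF067061, AF067063 and BC147527, taken by gene name, and all 6 were found among the 28431 genes of the deposited table. Tcstv stands for two-cell-stage variable group. Tcstv1 and Tcstv3 are reported to lengthen telomeres in mouse embryonic stem cells. No role is stated for the other members, which are known here as transcripts of the early embryo.

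All groups were mouse embryonic stem cells with a MERVL::EGFP reporter, a fluorescent protein under control of an endogenous retrovirus, grown on gelatin in serum with leukemia inhibitory factor and 2i. They were transfected on consecutive days, and polyA RNA was sequenced as stranded libraries. The NC group received 20 pmol of negative control siRNA. The Chaf1a siRNA group received 10 pmol of siRNA against Chaf1a beside 10 pmol of the negative control, and in the si308 and si309 groups 10 pmol of an mDux siRNA pool took the place of the control. Each pool was made by dicing double-stranded RNA from 1 fragment of mDux with Giardia Dicer, and the label of 1 si309 library gives no dose. Each group had 2 biological replicates, named 0 and 1 after the columns of the table.

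CHAF1A is the large subunit of CAF-1, a histone chaperone that deposits histones on newly replicated DNA. DUX, encoded by mDux, is a double homeobox factor that activates transcription in the early embryo. Embryonic stem cell cultures hold a small fraction of cells in a state resembling the cleavage-stage embryo, in which MERVL and genes of this family are transcribed. The comparisons ask how far Chaf1a depletion raised the family's RNA, and how far each mDux pool lowered it in cells that were also depleted of Chaf1a.

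The 6 members lie in a single cluster on mouse chromosome 13, from position 119827961 to 120318178 of GRCm38, a span of 490.2 kb, and all are annotated as protein-coding. AF067063 (ENSMUSG00000094237, chr13:119827961-119830216, minus strand) and D13Ertd608e (ENSMUSG00000095514, chr13:119836006-119846570, plus strand) are transcribed away from each other, with 5.8 kb between their 5′ ends. Tcstv1 (ENSMUSG00000096284, chr13:119893388-119894785, minus strand) is 64.6 kb from the 5′ end of AF067063. AF067061 (ENSMUSG00000095071, chr13:120263114-120264517), BC147527 (ENSMUSG00000094796, chr13:120300392-120308779) and Tcstv3 (ENSMUSG00000095821, chr13:120316878-120318178) lie on the plus strand at the other end, 432.9, 470.2 and 486.7 kb away.

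Each member has its whole coding sequence in 1 exon, of 453 to 513 bases without the stop codon in GENCODE. The first 60 coding bases of the members are given to show how alike the genes are, since that decides which reads can be assigned to 1 gene. Capitals mark bases that differ from AF067061 at the same position, counted without gaps.
AF067061: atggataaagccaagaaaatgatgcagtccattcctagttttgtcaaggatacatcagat
Tcstv1: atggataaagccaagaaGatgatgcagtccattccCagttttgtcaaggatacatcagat
Tcstv3: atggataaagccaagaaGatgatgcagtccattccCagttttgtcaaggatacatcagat
BC147527: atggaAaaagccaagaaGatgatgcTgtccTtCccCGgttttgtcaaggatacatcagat
D13Ertd608e: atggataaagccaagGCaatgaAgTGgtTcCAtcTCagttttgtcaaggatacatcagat
AF067063: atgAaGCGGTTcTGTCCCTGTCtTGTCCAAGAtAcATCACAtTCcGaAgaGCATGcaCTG

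Tcstv1 and Tcstv3 were identical to each other in these bases, and each differed from AF067061 at 2 of 60. BC147527 differed at 7 and D13Ertd608e at 10. AF067063 differed at 45 in this count without gaps, although its coding bases were 81.1% to 83.1% identical to those of the other members once aligned. Over the aligned coding bases, identity was 95.9% between Tcstv3 and AF067061, 95.3% between Tcstv1 and AF067061, and 94.7% between Tcstv1 and Tcstv3. BC147527 was 88.8% to 92.2% identical to these 3 genes. D13Ertd608e and AF067063 stood apart from the rest, at 79.7% to 83.1% with every other member.

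Several unnamed gene models in the same cluster are closer copies of a member than the members are of each other. D13Ertd608e was 99.8% identical to Gm21762 and AF067063 was 99.8% identical to Gm21731 over the aligned coding bases. AF067061 was 97.5% identical to Gm21761, and Tcstv1 was 96.9% identical to Gm21818. Of all windows of 125 bases, the read length, 100% in the AF067061 transcripts were found in no other gene's transcript, as were 99.4% for BC147527, 98.2% for Tcstv1 and 95.7% for Tcstv3. That share was 48.2% for AF067063, with the other windows shared with Gm21731, and 24.2% for D13Ertd608e, with the other windows shared with Gm21762. How the authors' counting treated reads that fit more than 1 copy is not given in the sources used here, so the counts of D13Ertd608e and AF067063 are uncertain in that respect.

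**Figure D1:**
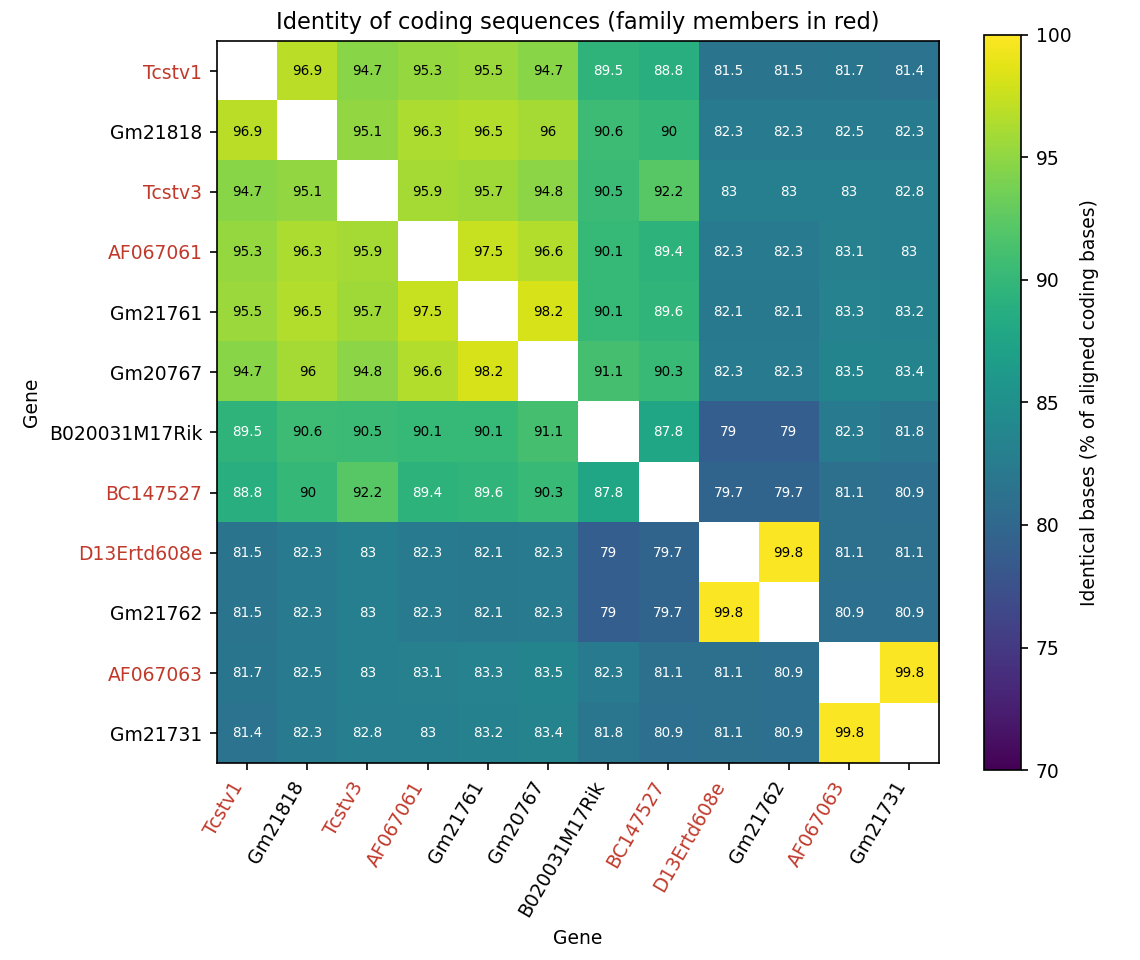
Identical bases as a percentage of aligned coding bases, for each pair of the 6 members (red labels) and 6 gene models of the same cluster (black labels). Values shown run from 79.0% to 99.8%, and D13Ertd608e with Gm21762 and AF067063 with Gm21731 form the closest pairs. The protein-coding models Gm36079 and Gm21188, also between the members, are left out, at 57.0% to 66.2% with the members.

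Promoter sequence was compared because the pools act on the RNA of a homeodomain factor. RefSeq promoters of GRCm38.p6 were found for 2 of the 6 members, AF067061 and BC147527, and for 3 neighbours, Gm21761, Gm36079 and Gm21188. The words searched on both strands were GATTNAATC, the palindromic core of motifs of the DUX type, ATTNAATCA, which can overlap it, and TATAAA. ATTNAATCA fixes as many bases as GATTNAATC but is not palindromic, so each strand can match it at different sites. The 250 bases before the start site are given below for both members and for Gm21761, the closest relative of AF067061, at chr13:120262845-120263094 (plus strand) for AF067061, chr13:119913469-119913718 (minus strand) for Gm21761 and chr13:120300142-120300391 (plus strand) for BC147527, with matches to the first 2 words in capitals.
AF067061: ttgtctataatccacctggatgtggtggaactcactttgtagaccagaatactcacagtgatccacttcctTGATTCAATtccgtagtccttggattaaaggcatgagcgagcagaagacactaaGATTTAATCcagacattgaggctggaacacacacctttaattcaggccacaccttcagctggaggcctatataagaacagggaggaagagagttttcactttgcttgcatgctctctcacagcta
Gm21761: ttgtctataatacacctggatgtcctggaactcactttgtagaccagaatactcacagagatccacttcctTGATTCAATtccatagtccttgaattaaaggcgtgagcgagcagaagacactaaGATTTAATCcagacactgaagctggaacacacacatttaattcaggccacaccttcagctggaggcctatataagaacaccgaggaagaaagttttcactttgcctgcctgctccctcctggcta
BC147527: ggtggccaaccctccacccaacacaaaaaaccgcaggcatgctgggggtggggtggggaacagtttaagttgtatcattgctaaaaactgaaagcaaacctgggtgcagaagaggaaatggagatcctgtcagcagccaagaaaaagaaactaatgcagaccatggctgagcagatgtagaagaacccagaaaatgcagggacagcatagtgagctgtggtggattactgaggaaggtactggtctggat

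AF067061 and Gm21761 each held GATTNAATC, starting at base -125, and ATTNAATCA, starting at base -179, and neither held TATAAA in its 300-base promoter. Their 250 bases differed at 19 positions, so the matches are those of near-identical copies. BC147527, Gm36079 and Gm21188 held none of the 3 words. Among all 32851 promoters of 300 bases, 0.268% held GATTNAATC, 0.718% held ATTNAATCA and 13.6% held TATAAA. Of 29 other cleavage-stage genes with a promoter in the table, none held GATTNAATC, 6 held ATTNAATCA and 10 held TATAAA. A match describes these letters only and does not show that a factor binds there.

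The gene libraries held 26042851 to 42375685 counts. Chaf1a itself was 139 and 140 CPM (counts scaled to a library of fixed size with TMM factors) in the NC libraries and 28.7 and 30.8 CPM with Chaf1a siRNA, where it fell by 2.23 on the log2 scale (SE 0.07, adjusted p = 4.9e-17 by edgeR's quasi-likelihood test). With the pools Chaf1a was at 29.2 to 35.2 CPM. Against Chaf1a siRNA alone it was slightly higher with si308 (log2 change 0.22, adjusted p = 0.036, edgeR). With si309 it was not called (log2 change 0.08, adjusted p = 0.59, edgeR). The mDux copy 4933403O03Rik had 0 and 2 counts in NC, 256 and 193 with Chaf1a siRNA, 1 and 4 in the si308 libraries, and 5 and 9 in the si309 libraries. Both targets thus moved as the labels say. Of 10 embryonic stem cell markers, all were present in every group and Chaf1a siRNA raised 2 and lowered 7, with a summed level of 6520 to 6610 CPM in NC, 4500 to 4530 with Chaf1a siRNA, 4680 to 4820 with si308 and 4450 to 4460 with si309. Of all genes tested, Chaf1a siRNA raised 37.1% and lowered 30.4% at an edgeR adjusted p under 0.05.

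Chaf1a depletion raised the family from near absence to a summed level of 76.6 and 75.6 CPM, against 0.118 and 0.121 CPM in NC. In the NC libraries the 6 members had 3 and 4 counts in all, and with Chaf1a siRNA they had 2659 and 2009. All 5 members that could be tested were raised, where 37.1% of all genes tested were raised and 30.4% lowered at an adjusted p under 0.05. Their median log2 change was 9.43, or 8.19 with the members that had no NC counts set at their lower bound, against 0.06 over all genes. In bulk RNA, more cells of the cleavage-like state and more RNA per cell cannot be told apart. The low-count filter kept these genes because of their counts with Chaf1a siRNA, so their number among the genes called is given as a description.

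Tcstv3 had 2 and 0 counts in the NC libraries, 380 and 301 in the Chaf1a siRNA libraries, 0 and 2 in the si308 libraries and 7 and 8 in the si309 libraries. Its Chaf1a siRNA libraries stood far above the other 6, and its si309 libraries were above both NC and si308 without overlap. The mean rose from 0.0393 ± 0.0556 to 11.1 ± 0.268 CPM (SD, n = 2), and the pooled counts gave a ratio of 324 with an exact 95% counting interval of 89.5 to 2680. edgeR gave a log2 change of 8.19 (SE 0.40, adjusted p = 1.2e-13), which was 7.07 without NC replicate 1 and 11.57 without NC replicate 0, where the NC library left has no count and the value depends on the prior count. Counting intervals and floors in this text pool the 2 libraries of a group, so they leave out the spread between replicates. The reads carried no molecular identifiers, so counting error itself may not be fully covered. Each SE in this text is the log2 change divided by the square root of the test's F statistic. Where a group held few counts, the counting interval is far wider than such an SE implies, and the SE understates the uncertainty.

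Tcstv1, 94.7% identical to Tcstv3 over its coding bases, was nearly silent by comparison. It had 0 and 1 counts in NC, 8 and 9 with Chaf1a siRNA, and none in any of the 4 pool libraries. The Chaf1a siRNA libraries did not overlap the others, but the level was only 0.284 ± 0.0765 CPM (SD, n = 2), and the gene did not pass the low-count filter. The ratio over NC was 16.2, with a counting interval of 2.54 to 677. Without a filter, edgeR called the rise (log2 change 3.77, adjusted p = 0.018), whereas DESeq2 did not (adjusted p = 0.12). The unfiltered fit gave far smaller p-values, with an edgeR adjusted p of 4.2e-103 for Tcstv3 against 1.2e-13 in the main fit. Its call of Tcstv1 is thus weak evidence.

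AF067061 was the most abundant member, with 1 and 2 counts in NC, 1332 and 1006 after Chaf1a depletion, 2 and 0 in the si308 libraries, and 13 and 30 in the si309 libraries. Here too the Chaf1a siRNA libraries stood apart, and those with si309 lay between them and the rest. The mean went from 0.05 ± 0.0151 to 38.1 ± 0.367 CPM, and the ratio of pooled counts was 743 (counting interval 254 to 3600). The fitted log2 change was 9.43 (SE 0.28, adjusted p = 1.7e-17, edgeR).

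D13Ertd608e had no count in either NC library, 387 and 304 with Chaf1a siRNA, none with si308, and 8 and 14 with si309. Its level with Chaf1a siRNA was 11.3 ± 0.205 CPM, at least 108-fold higher than NC when each NC library is set at a floor of 3 counts (adjusted p = 1.4e-13, edgeR). AF067063, which lies head to head with it, likewise had no count in NC or with si308, 216 and 136 with Chaf1a siRNA, and 3 and 6 with si309. Its level was 5.67 ± 0.781 CPM, at least 54.3-fold higher than NC (adjusted p = 2.8e-11, edgeR). These genes were read in the same groups and missing in the same groups, and their fitted fold changes, which depend on the prior count, are not given.

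BC147527 had 0 and 1 counts in NC, 336 and 253 after Chaf1a depletion, 0 and 1 when si308 was added, and 7 and 6 when si309 was added. Its mean reached 9.6 ± 0.113 CPM from 0.0152 ± 0.0215 CPM, and the ratio of pooled counts was 561 with a counting interval of 100 to 22200. The log2 change was 8.85 (SE 0.43, adjusted p = 1.1e-13, edgeR), which was 8.14 without NC replicate 0 and 11.32 without NC replicate 1, where the NC library left has no count. Only the Chaf1a siRNA and si309 libraries rose above 1 count for this gene.

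**Figure D2:**
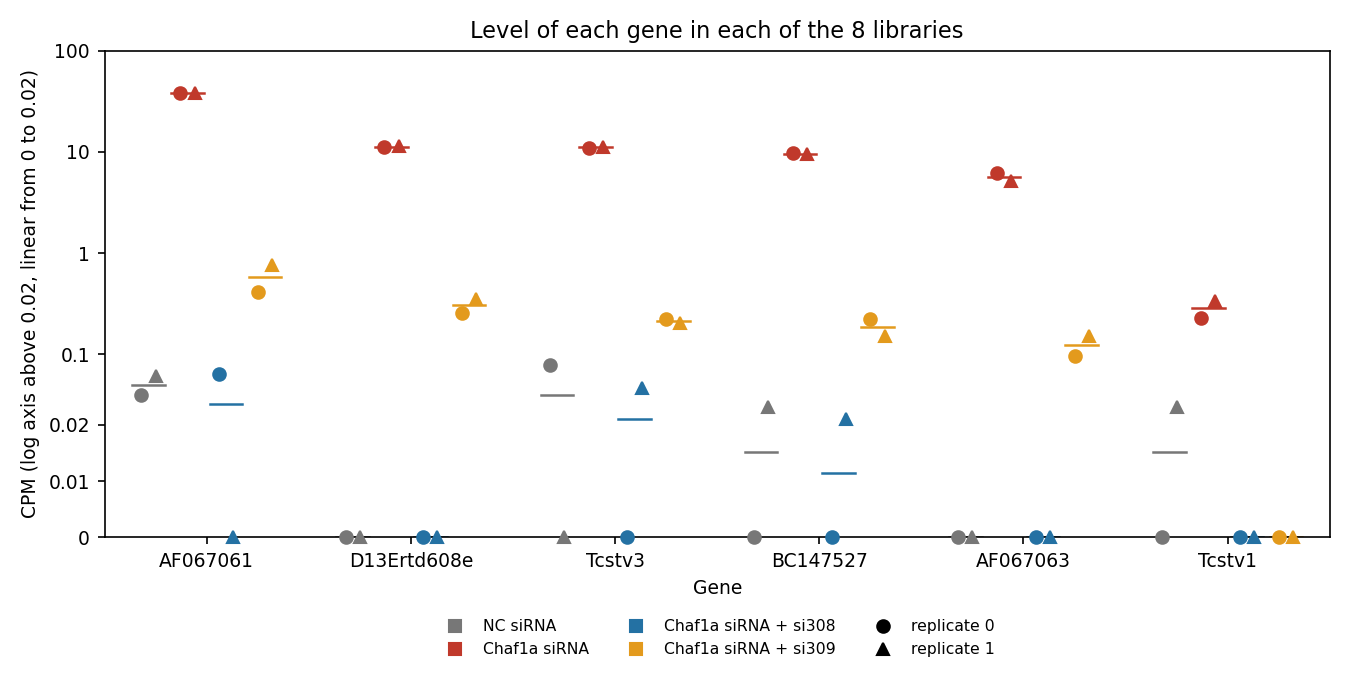
CPM of each member in each of the 8 libraries, by siRNA group (colours), with circles for replicate 0, triangles for replicate 1 and a line at the mean of the 2. In every member the 2 Chaf1a siRNA libraries are the highest, from 0.23 CPM for Tcstv1 to 38.4 CPM for AF067061, and in all but Tcstv1 the si309 libraries come next.

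Per kb of exon, the levels in the Chaf1a siRNA group followed the order AF067061, D13Ertd608e, Tcstv3, AF067063, BC147527 and Tcstv1. AF067061 stood at 27.1 ± 0.261 CPM per kb and D13Ertd608e at 15.6 ± 0.283. Tcstv3 came next at 14.3 ± 0.344 CPM per kb, with libraries at 14.0 and 14.5 against 15.4 and 15.8 for D13Ertd608e. AF067063 at 6.4 ± 0.883 CPM per kb and BC147527 at 6.02 ± 0.0708 did not differ beyond their spread, since the BC147527 libraries at 6.07 and 5.97 fell between the AF067063 libraries at 7.03 and 5.78. Tcstv1 was last at 0.203 ± 0.0547 CPM per kb.

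The family's counts were dominated by 1 gene. AF067061 made up 50.1% of the 4668 counts of the 6 members with Chaf1a siRNA (exact Clopper-Pearson 95% interval 48.6 to 51.5), and 50.1% in each library. D13Ertd608e gave 14.8%, Tcstv3 14.6%, BC147527 12.6%, AF067063 7.54% and Tcstv1 0.364%. With si309 the shares of the 102 counts were 42.2% for AF067061 (32.4 to 52.3) and 21.6% for D13Ertd608e (14.0 to 30.8). The AF067061 interval with si309 includes the share seen with Chaf1a siRNA alone, and that of D13Ertd608e does too.

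With si308 the family fell to a few counts per library. The 6 members had 2 and 3 counts in all in the si308 libraries, or 0.064 and 0.0691 CPM summed. These sums lay below the 0.118 and 0.121 CPM of the NC libraries, a difference of a few counts that was not tested. All 5 tested members were lowered against the Chaf1a siRNA group, where 12.9% of all genes tested were lowered and 8.92% raised. The median log2 change was -10.28, or -8.51 with bounds for the members at 0, against 0.00 over all genes. The low-count filter kept the members mainly through their Chaf1a siRNA counts, so the number lowered is also given as a description only.

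AF067061 fell 1420-fold with si308 (counting interval 394 to 11800, with a log2 change of -10.28, SE 0.28 and adjusted p = 1.1e-17 in edgeR). Tcstv3 fell 415-fold (114 to 3430, log2 change -8.51, SE 0.39, adjusted p = 1.2e-13, edgeR), and BC147527 fell 718-fold (128 to 28400, log2 change -9.13, SE 0.41, adjusted p = 1.1e-13, edgeR). D13Ertd608e was at least 137-fold lower and AF067063 at least 68.7-fold lower, each with no count in either si308 library (adjusted p = 1.7e-13 and 5.6e-11, edgeR). Tcstv1, not tested, was at least 3.45-fold lower. Single si308 libraries moved the fitted log2 changes. Without si308 replicate 0 they were -13.31 for AF067061, -7.80 for Tcstv3 and -8.48 for BC147527, and without si308 replicate 1 they were -9.13, -11.46 and -11.24. The most extreme value of each gene comes from a fit in which the si308 library left had no count.

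Against NC, no member was called higher or lower with si308, where 32.9% of all genes tested were raised and 28.9% lowered. The edgeR adjusted p ran from 0.57 to 1.0 over the 5 members tested, and none had an unadjusted p under 0.05. DESeq2 also called none. The counts were too low to show that the levels were equal: the ratio of NC to si308 for AF067061 was 1.92, with a counting interval of 0.22 to 23.0.

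With si309 the family also fell, but not to the level of the negative control. The members had 38 and 64 counts in all in the si309 libraries, or 1.2 and 1.62 CPM summed. All 5 tested members were lowered against the Chaf1a siRNA group, where 7.61% of all genes tested were lowered and 3.24% raised. Their median log2 change was -5.68 against -0.01 over all genes. As for si308, the filter makes this number a description only. AF067061 fell 63.1-fold (counting interval 46.7 to 87.4), Tcstv3 52.7-fold (31.7 to 94.6) and BC147527 52.6-fold (30.5 to 99.3). AF067063 fell 45.4-fold (23.6 to 100) and D13Ertd608e fell 36.4-fold (23.9 to 58.5). The edgeR adjusted p of these 5 ranged from 8.9e-17 for AF067061 to 4.7e-10 for AF067063.

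Against NC, all 5 tested members were raised with si309, where 34.8% of all genes tested were raised and 30.7% lowered. AF067061 was 11.8-fold higher (counting interval 3.77 to 59.3, with a log2 change of 3.46, SE 0.63 and adjusted p = 5.9e-05 in edgeR), and D13Ertd608e was at least 2.91-fold higher (adjusted p = 0.00011, edgeR). BC147527 was 10.7-fold higher (1.6 to 454, adjusted p = 0.0073, edgeR) and AF067063 at least 1.18-fold higher (adjusted p = 0.0073, edgeR). Tcstv3 was 6.16-fold higher (1.43 to 55.5, adjusted p = 0.017, edgeR), a call lost without NC replicate 1, which had no count (log2 change 1.38, adjusted p = 0.20), against 2.50 with all libraries and 5.88 without NC replicate 0. For BC147527 the log2 change was 3.16, and 2.45 without NC replicate 0 and 5.63 without NC replicate 1. Tcstv1 had no count with si309, and no fold is given for it.

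The difference between the pools was tested directly. Of the 5 tested members, 3 were higher with si309 than with si308 at an adjusted p under 0.05, where 2.40% of all genes tested were raised and 1.28% lowered. They were AF067061 (22.6-fold, counting interval 5.88 to 192, adjusted p = 0.00038, edgeR), D13Ertd608e (at least 3.68-fold, adjusted p = 0.0017, edgeR) and BC147527 (13.7-fold, 2.05 to 580, adjusted p = 0.044, edgeR). Tcstv3 was 7.88 times higher (1.83 to 71.0) and AF067063 at least 1.49 times, with adjusted p = 0.073 and 0.052 (edgeR), so neither passed. In all 5 the si309 libraries lay above the si308 libraries without overlap. The share of all genes that separate in this way was not computed, so this is given as a description only.

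The count of 3 was sensitive to single libraries. It was 5 without NC replicate 0 or without NC replicate 1, and 2 without any 1 of the other 6 libraries, with BC147527 the member lost (edgeR adjusted p 0.058 to 0.21). The log2 difference of AF067061 between the pools was 4.31, and 7.34 without si308 replicate 0 and 3.16 without si308 replicate 1. That of BC147527 was 3.45, and 2.8 and 5.57 in the same order. mDux differed between the pools by 1.51 on the log2 scale, which did not pass (adjusted p = 0.28, edgeR).

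As a share of the Chaf1a siRNA level, the members kept 0 to 0.207% with si308 and 0 to 2.69% with si309. D13Ertd608e kept the most with si309, 2.69%, followed by AF067063 at 2.18%, BC147527 at 1.95%, Tcstv3 at 1.90% and AF067061 at 1.54%. These shares rest on 9 counts with si309 for AF067063 to 43 for AF067061. The counting intervals of the 5 falls overlap, so the order is not resolved. mDux itself kept 0.848% with si308 and 2.64% with si309. In NC the same shares were 0 to 0.353% for these 5 members, and 5.33% for Tcstv1, which rests on 1 count.

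**Figure D3:**
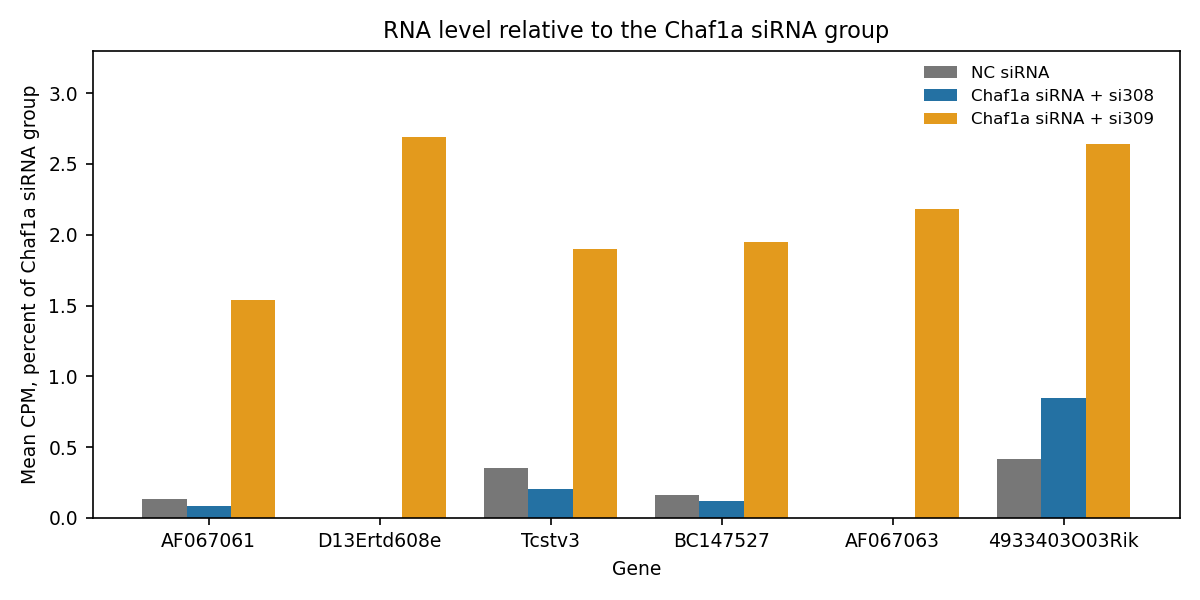
Mean CPM with NC siRNA and with each mDux pool as a percentage of the mean CPM with Chaf1a siRNA, for 5 members and the mDux copy 4933403O03Rik (2 libraries per group, no error bars; Tcstv1, with 17 counts in the Chaf1a siRNA group, is left out). With si309 the members stand at 1.54% to 2.69%, and with si308 and NC at 0 to 0.353%.

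The sequence of the pools was compared with that of the members. The fragments behind the pools, placed by the primers on the mDux transcript, were 408 bases for si308 and 480 bases for si309. The longest exact run in common with a member's transcript, on either strand, was 9 to 11 bases for si308 and 9 to 12 bases for si309. The run length to be found between unrelated transcripts was not computed, and direct action of the pools on member RNA was not tested.

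The authors' deposited table compares each treated group with NC and gives smaller log2 changes for the family, on its own scale. For Chaf1a siRNA the authors' deposited table lists 6.54 for AF067061, 5.0 for D13Ertd608e, 4.86 for Tcstv3, 4.72 for BC147527, 3.98 for AF067063 and 0.52 for Tcstv1, all with an adjusted p of 0.008 or less. For si309 the authors' deposited table lists 1.09 for AF067061 (adjusted p = 0.00022) and 0.79 for D13Ertd608e (adjusted p = 0.015). The values for Tcstv3, AF067063 and BC147527 in the authors' deposited table were 0.34 to 0.44 with an adjusted p of 0.21 to 0.34.

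Other genes of the cluster moved with the members. GENCODE places 21 other genes between the outermost members, of which 9 were in the table and 6 could be tested. Of these, 5 were raised by Chaf1a siRNA at least 2-fold, the same 5 were lowered by each pool, and 4 were higher with si309 than with si308. These 5 carry model names only, so no role is stated for them. Their highest counts were with Chaf1a siRNA, which helped them pass the low-count filter, so their numbers are a description only. Of all genes tested, 37.1% were raised by Chaf1a siRNA at any fold, 12.9% were lowered by si308 and 7.61% by si309. The share higher with si309 than with si308 was 2.4%.

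Gm21761, the closest relative of AF067061, was the most abundant gene of the cluster. Its counts were 20 and 15 in NC, 7117 and 5415 after Chaf1a depletion, 9 and 6 when si308 was added, and 110 and 129 when si309 was added. Its level with Chaf1a siRNA, 149 CPM per kb, was above every member's, and its log2 change was 8.40 (adjusted p = 1.8e-22, edgeR). It was also lower with si308 than in NC (log2 change -1.56, adjusted p = 0.0024, edgeR), a call lost without NC replicate 0 (-1.17, adjusted p = 0.052) or si308 replicate 1 (-1.05, adjusted p = 0.072). Of its 125-base windows 65.1% were found in no other gene.

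Gm21818 reached 55.6 CPM per kb with Chaf1a siRNA, Gm20767 reached 42.6 and B020031M17Rik reached 14.7. Their log2 changes over NC were 8.87, 8.31 and 7.56 (adjusted p = 1.4e-19, 1.1e-18 and 1.5e-13, edgeR). Without NC replicate 0 the change was 9.32 for Gm20767 and 6.76 for B020031M17Rik, and without NC replicate 1 it was 7.58 and 11.82. These levels lie in the range of the more abundant members or above it. Gm20767 shares 33.5% of its 125-base windows with Gm21761.

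The near-identical partners of 2 members were counted far less often than the members. Gm21731 had no count in NC or si308, 57 and 50 counts with Chaf1a siRNA, and 1 and 0 with si309, at least 16.9-fold higher with Chaf1a siRNA than in NC (adjusted p = 9.2e-08, edgeR). AF067063, its partner, had 352 counts with Chaf1a siRNA. Gm21762 had 2 counts with Chaf1a siRNA, against 691 for its partner D13Ertd608e. The processed pseudogene Gm20900, inside BC147527 on the opposite strand, was not called (log2 change -0.83, adjusted p = 0.21, edgeR), except without Chaf1a siRNA replicate 0 (-2.47, adjusted p = 0.031).

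Genes just outside the cluster changed little on the AF067063 side, the only side where any were found. Of 7 tested genes there, within 500 kb of a member, none changed 2-fold or more in any of the 6 comparisons. GENCODE places no gene within 500 kb beyond Tcstv3, so that side is not described. Zfp131, with its 5′ end at -39.3 kb from that of AF067063, was raised by 0.24 on the log2 scale with Chaf1a siRNA. Hmgcs1, an enzyme of cholesterol synthesis, Nnt and Nim1k were lowered by Chaf1a siRNA, with log2 changes of -0.80, -0.48 and -0.53. The Zfp131 call was lost without NC replicate 1 (0.17, edgeR adjusted p = 0.063). The Nim1k call was lost without NC replicate 0 (-0.40, edgeR adjusted p = 0.11) or Chaf1a siRNA replicate 0 (-0.51, adjusted p = 0.075), with library totals (-0.38, adjusted p = 0.081) and in DESeq2 (-0.56, adjusted p = 0.069).

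**Figure D4:**
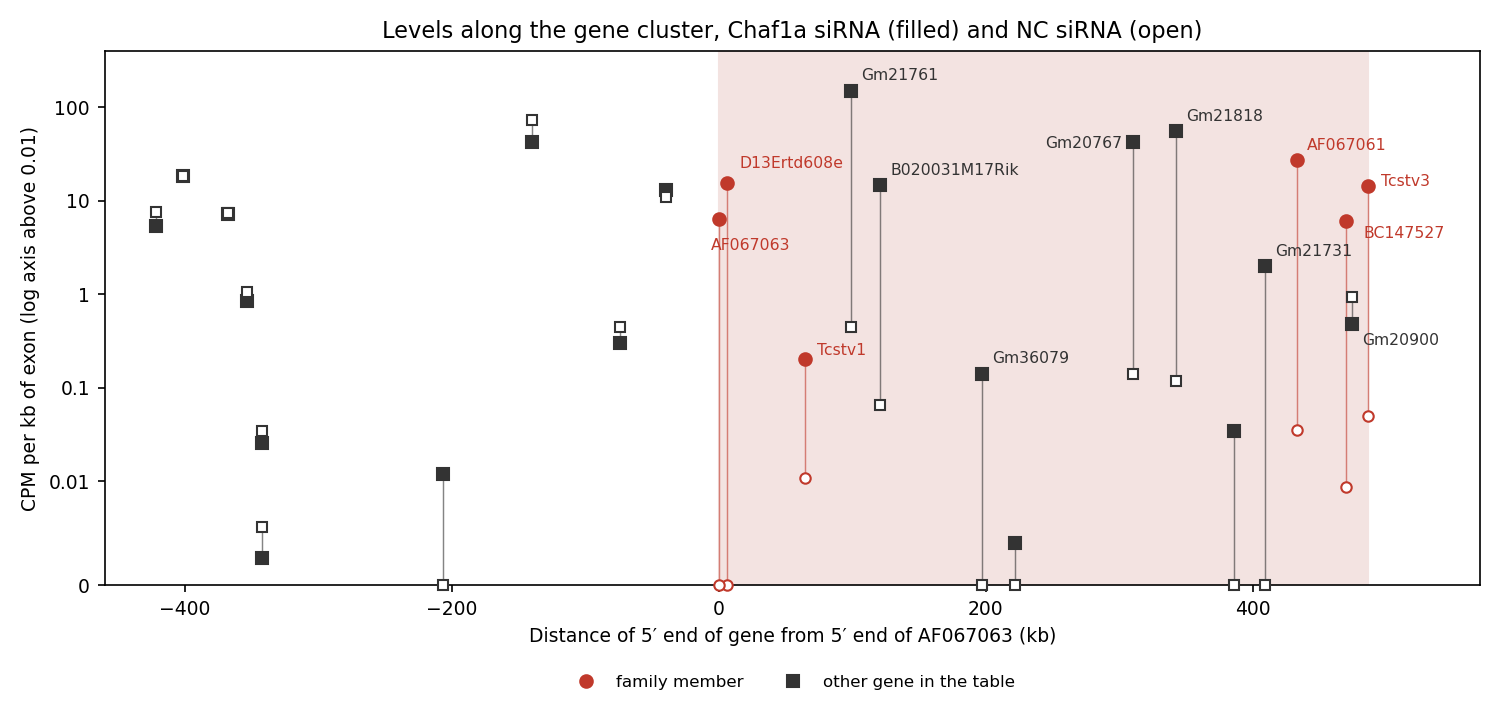
Mean CPM per kb of exon with Chaf1a siRNA (filled) and NC siRNA (open) for members (red circles) and other genes in the table (black squares), against the distance of their 5′ ends from that of AF067063 in kb; the shaded region runs to Tcstv3, the last member. Inside it 5 members and 4 other genes stand at 6 CPM per kb or more with Chaf1a siRNA and under 0.5 in NC, whereas the genes to the left change by less than 2-fold where they could be tested.

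Cleavage-stage genes outside the cluster were compared with the family. The list held 44 genes, of which 41 were in the table and 39 were tested. Chaf1a siRNA raised 36 and lowered 2, or 1 without its replicate 1 (median log2 change 8.66, or 7.92 with bounds), si308 lowered 35 and si309 lowered 34 against Chaf1a siRNA. With si309, 21 were higher than with si308. Most of these genes also had their highest counts with Chaf1a siRNA, which the low-count filter used, so the numbers called are descriptions. Over all genes tested, Chaf1a siRNA raised 37.1% and lowered 30.4%, si308 lowered 12.9% and si309 lowered 7.61%, and 2.4% were higher with si309. Among the 36 raised genes the median share of the Chaf1a siRNA level kept was 0.165% with si308 and 2.66% with si309, beside 0.042% and 1.92% for the 6 members. The 6 include Tcstv1, which was not tested and had no count with either pool. The 2 sets were thus chosen differently, and the difference between their medians was not tested.

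The 6 most abundant genes of that list with Chaf1a siRNA did not all move alike. Zscan4d and Zscan4c, zinc finger genes of the cleavage-stage embryo, were at 266 ± 12.4 and 164 ± 5.76 CPM, with log2 changes over NC of 8.91 (9.53 without NC replicate 1) and 9.50. Usp17la, also at 164 CPM, was level with Zscan4c at the sixth place. Usp17le and Usp17lb, of a family of deubiquitinating enzymes, were at 181 ± 8.1 and 172 ± 5.29 CPM, with log2 changes of 10.16 (10.90 without NC replicate 0 and 9.56 without NC replicate 1) and 10.91. Nelfa, a subunit of a factor that pauses RNA polymerase, was at 84.0 ± 2.52 CPM in NC and rose by 1.49 on the log2 scale to 236 ± 11.7 CPM. Eif1a, a translation initiation factor, fell by 0.34 to 210.0 ± 2.59 CPM. All 6 changes had an edgeR adjusted p of 1.5e-06 or less.

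The named genes with the pattern most like that of the members over the 8 libraries were Zfp353-ps, Fgf1, Pramef6, Spz1 and BC061212. Likeness was the root mean square difference in centred log2 CPM, which was 0.212, 0.295, 0.34, 0.343 and 0.361 for these genes and had a median of 3.01 over the 15021 genes ranked. The tested members themselves had values of 0.225 to 0.613. Only 1 of the 5 genes stayed among the nearest 5 when any 1 library of NC, si308 or si309 was left out, so the order rests on a few counts.

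Zfp353-ps, a zinc finger pseudogene, had 1 count in each NC library, 518 and 478 after Chaf1a depletion, 0 and 1 in the si308 libraries, and 9 and 15 in the si309 libraries. Fgf1, a secreted growth factor, had 3 and 7 counts in NC, 973 and 834 after Chaf1a depletion, 7 and 8 when si308 was added, and 27 and 41 when si309 was added. In both genes the Chaf1a siRNA libraries stood far above the rest and the si309 libraries came next.

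Markers of other cell types were also called with Chaf1a siRNA, where 37.1% of all genes tested were raised and 30.4% lowered. Their part in the family's change was not tested. Of 10 primitive endoderm markers, 8 were raised and 1 lowered, with a summed level of 167 to 201 CPM in NC, 366 to 384 with Chaf1a siRNA, 293 to 310 with si308 and 320 to 338 with si309. Sox7 was at 0 in NC. Of 9 tested trophectoderm markers, 6 were raised and 2 lowered (82.4 to 82.6 CPM in NC, 87.2 to 87.5 with Chaf1a siRNA, 92.8 to 99.2 with si308 and 105 to 106 with si309). In both lists the pool groups stayed above the NC level.

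Of 10 postimplantation markers, 6 were raised and 2 lowered (140.0 to 152 CPM in NC, 190.0 to 193 with Chaf1a siRNA, 201 to 228 with si308 and 203 to 206 with si309). Of 8 tested fibroblast markers, 6 were raised and 1 lowered, with a summed level of 2780 to 3120 CPM in NC, 2390 to 2460 with Chaf1a siRNA, 2010 to 2040 with si308 and 1940 to 2060 with si309. Col3a1, Dcn and Postn were at 0 in NC. Beside both lists, 37.1% of all genes tested were raised by Chaf1a siRNA and 30.4% were lowered. The mitochondrial share of counts was 0.755% to 0.848% in NC and 1.02% to 1.12% in the other libraries.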

How the data were processed

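Per the submitters' processing notes, the authors' tools were Novoalign 2.8, on paired reads of 125 bases with mm10 as the genome, and DESeq2. How reads were counted, and on which annotation, is not given in the sources used here. The deposited table holds raw counts per Ensembl gene for 8 libraries, per the file headers. It also gives the authors' log2 fold changes against the negative control and their adjusted p-value for each, whose shrinkage is not stated.

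Count columns, numbered 0 and 1, were mapped to groups and not to single labels. The test was that of edgeR 4.0.16 (R 4.3.3). The filterByExpr step with the groups kept 17970 of 28431 genes, TMM factors scaled them, and 1 mean per group left 4 residual degrees of freedom. The quasi-likelihood F test gave p-values, which the Benjamini-Hochberg method adjusted over the genes tested. Each SE is the absolute log2 change divided by the square root of F, and so not a standard error fitted to the change. A gene is called raised or lowered below 0.05. The script was tested on simulated data. Values after ± are standard deviations of 2 libraries. Ratios compare the pooled counts of 2 groups over their scaled library sizes, with exact 95% counting intervals. Where the lower group had no count, its mean CPM at a floor of 3 counts per library gives a lower bound.

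Positions, exon lengths and transcripts came from GENCODE release vM21 (GRCm38), which matched 27843 IDs, and promoters from RefSeq (GRCm38.p6). The members and lists were chosen with earlier results of these data known. The genes named outside the family follow rules: the 5 nearest in pattern without model names, the 6 most abundant of the cleavage-stage list, and genes within 500 kb. Alternatives were RLE factors, library totals, no filter, a robust spread, DESeq2 1.42.0, leaving out each library and, chosen after seeing the data, the column number as a block. The 16 per-sample columns of regularised log values were left out, and no repeat value is reported here.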

Additional observations from a re-analysis of the deposited data

How the results depend on the processing

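Over 14 alternatives, 404 of 420 fitted values of the members kept their side of the threshold, 9 lost a call and 7 gained one. Of the values called in either fit, 0 reversed direction. Values not called could change sign. Between si308 and the negative control the log2 change ran from -3.28 to 3.06 for Tcstv3, from -3.88 to 0.29 for AF067061 and from -2.42 to 2.19 for BC147527. The number of members raised by Chaf1a siRNA, and of members lowered by each pool, was 5 or 6 under every alternative, the sixth being Tcstv1 in fits where it was tested. The number raised with si309 against the negative control was 4 to 5 when single libraries were left out. The number higher with si309 than with si308 was 3, and became 5 with no low-count filter and 2 to 5 when single libraries were left out. The fit with no low-count filter gave far smaller p-values than the main fit, so its calls carry less weight. With a robust spread AF067063 was also called, with an edgeR adjusted p that rounds to 0.05. Under DESeq2 the number was 2, with BC147527 not called (adjusted p = 0.15). The cause was not tested. Scaling with library totals moved the median log2 change of all genes between Chaf1a siRNA and negative control from 0.06 to 0.22, and no member's call changed with it. The column numbers 0 and 1 could not be matched to the labels' replicate numbers, and differences between the columns of a group correlated at -0.0416 to 0.0425 between groups, so they are not treated as pairs. With the column number as a block, an alternative chosen after seeing the data, 5 members were raised by Chaf1a siRNA, 5 were lowered by each pool and 2 were higher with si309 than with si308, with BC147527 not called (adjusted p = 0.051, edgeR); no other member's call changed. Depth limits Tcstv1, with 17 counts in the Chaf1a siRNA group, and every level in the negative control and si308 groups, where no member had more than 2 counts in a library. Reads shared with Gm21762 and Gm21731 limit D13Ertd608e and AF067063.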
